A study of Mus musculus with 6 samples.

Results

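Leukocyte lineage markers are genes whose transcripts tell immune cells apart from the other cells of a tissue. The genes taken here were the pan-leukocyte gene Ptprc, the macrophage and myeloid genes Adgre1, Cd68, Csf1r, Lgals3, Itgam and Fcgr3, the B cell gene Cd79a and the T cell gene Cd3e. They were found on the array through the RefSeq accession of each probe, and 8 of the 9 genes matched, with 13 of the 39318 usable probes. No probe matched Cd68 through the gene table used here, so it is not analysed. Total RNA came from 6 female mice, all Trp53-/- (labelled Trp-53 knockout), each on 1 single-colour (Cy3) Agilent array. The diet, high-fat (HFD) for 3 of them and control (CD) for the other 3, began at 3 weeks of age and lasted 5 weeks, until sampling at 8 weeks. Every mouse lacked Trp53, so the comparison is of diets within that genotype, and no wild-type mice were compared. The tissue label names mammary glands and the sample descriptions name mammary epithelial cells, and the labels do not settle which was used.

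Macrophages sit around the ducts of the mammary gland and are needed for its growth at puberty, T and B cells are scattered through the stroma, and the inguinal fat pad also holds a lymph node. Ptprc encodes CD45, a phosphatase on nearly all white blood cells. Adgre1 encodes F4/80, the antigen most used to stain mouse macrophages, and Csf1r the receptor for the growth factor on which they depend. Itgam encodes CD11b, the alpha chain of an adhesion receptor of myeloid cells, and Fcgr3 a low-affinity receptor for IgG. Cd79a and Cd3e encode signalling chains of the B cell and T cell antigen receptors. Lgals3 encodes galectin-3 (Mac-2), a sugar-binding protein used as a macrophage marker but also made by epithelial cells and fibroblasts.

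Levels below are log2 signal minus the 75th percentile of the array, so a level of 0 is a probe as bright as that percentile, and a difference is the HFD mean less the CD mean (3 mice each). The 75th percentile ranged from 1326 to 1973 intensity units, and the dimmest probe called well above background on an array had 7.02 to 14.4 units, or a level of -7.87 to -6.83. A probe's brightness also depends on its sequence, so levels of different probes give no order of abundance. Sums and within-array differences over probes are used only to compare the diets. In limma, over 23460 genes or unnamed transcripts, 0.0171% passed an adjusted p of 0.05 in either direction, and 13.3% passed an unadjusted p of 0.05 (13.8% of probes). No leukocyte marker was among those that passed the adjusted threshold: 0 of 8 genes, and 0 of 13 probes where 0.0174% of all probes passed. Ptprc and Lgals3 were the 2 of 8 with an unadjusted p under 0.05, in Ptprc by a narrow margin. In the same 2 genes the diets did not overlap, 1 higher (8.47% of all genes) and 1 lower (8.75%), against 17.2% of all genes in either direction. By probe these were 2 of 13, against 17.5% of all probes, 9.25% higher and 8.22% lower. The median difference of the 8 genes was 0.08, against -0.01 over all genes, with 4 genes positive and 4 negative (51% of all genes were negative). In such bulk samples, fewer cells of a type and less RNA per cell cannot be told apart. All 13 probes lay well above background on every high-fat array, and 12 of them on all 6 arrays, as did 65.8% of all probes.

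**Figure D1:**
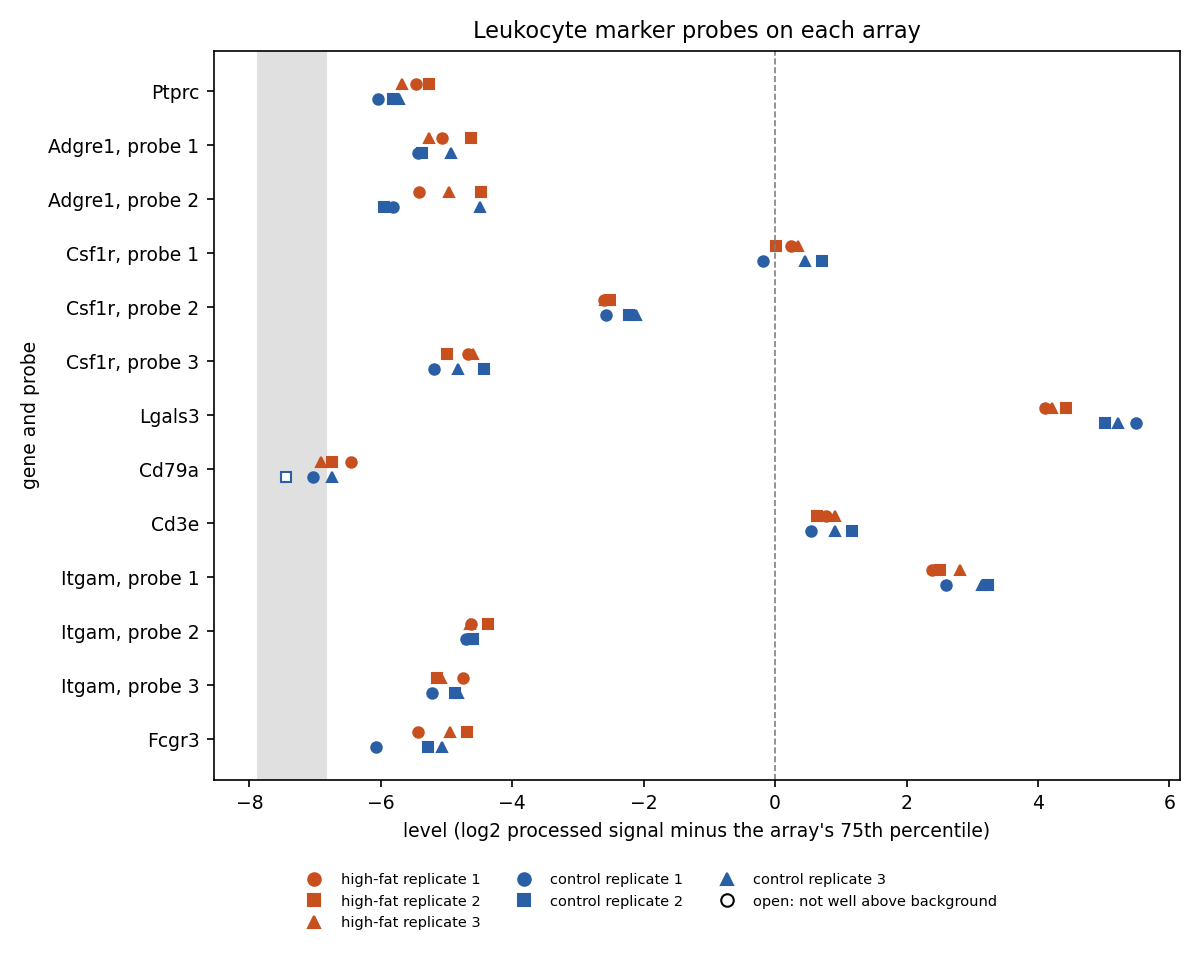
Level of each of the 13 leukocyte marker probes (log2 processed signal minus the array's 75th percentile) on each of the 6 arrays, with filled symbols where the probe lay well above background. The grey band runs from -7.87 to -6.83, the dimmest levels called well above background on the 6 arrays. Lgals3 and Ptprc are the genes whose diets do not overlap, and Cd79a lies in or beside the band.

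The pan-leukocyte gene Ptprc (NM_001111316, probe A_55_P1990324) was detected on all 6 arrays, at low signal. Its level was -5.46, -5.27 and -5.68 on high-fat replicates 1 to 3. On control replicates 1 to 3 it was -6.05, -5.81 and -5.72. Every high-fat array was above every control array, although high-fat replicate 3 and control replicate 3 differed little. In units of intensity the probe gave 31.0 to 44.9 on the high-fat and 23.6 to 27.7 on the control arrays. The difference was 0.39 (SE 0.16, 95% interval 0.0015 to 0.78), or 1.31-fold, with an unadjusted p of 0.0494 and an adjusted p of 0.374 in limma. The unadjusted p in limma was above 0.05 with median scaling (0.0511), quantile normalization (0.0643), normexp (0.287), no filter (0.0639), the replicate block (0.0764) and slide as a block (0.0755). In limma it was under 0.05 with probes on all 6 arrays (0.0446), the mean of a gene's probes (0.0491) and the deposited table (0.0487). With array weights, under which 2568 higher and 2840 lower genes were called, it was 0.0214 (adjusted p = 0.070 in limma). Without 1 array the unadjusted p lay between 0.0245 (without high-fat replicate 3) and 0.157 (without high-fat replicate 2). An exact permutation test gave p = 0.1, the smallest that 3 mice against 3 allow. Only 1 slide carried arrays of both diets, namely 2 HFD arrays (replicates 2 and 3) and 1 CD array (replicate 1), and within it the difference was 0.57 with an adjusted p of 0.994 in limma.

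Adgre1, the F4/80 gene (NM_010130), also gave low signals, with diets that overlapped. On the probe that stands for the gene (A_55_P2018934) the level was -5.08, -4.63 and -5.27 on high-fat replicates 1 to 3 and -5.44, -5.37 and -4.93 on control replicates 1 to 3. Control replicate 3 lay above 2 of the 3 high-fat arrays. The difference was 0.25 (SE 0.22, 95% interval -0.28 to 0.79) with an adjusted p of 0.605 in limma. It was 0.075 without high-fat replicate 2, 0.41 without control replicate 3, 0.77 with normexp and 0.49 within the shared slide. Its second probe (A_55_P2144386) pointed the same way, with a difference of 0.47 (SE 0.44), but spread more, with -5.95 for control replicate 2 at the bottom and -4.47 for high-fat replicate 2 at the top. On both probes the highest value among the high-fat arrays was that of replicate 2 and the highest among the controls that of replicate 3.

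Csf1r (NM_001037859), the receptor for colony stimulating factor 1, had 3 probes whose levels lay far apart. Its brightest probe (A_55_P2025078) was at 0.25, 0.02 and 0.35 on high-fat replicates 1 to 3 and at -0.19, 0.72 and 0.46 on control replicates 1 to 3. Another (A_55_P2025073) had group means of -2.57 ± 0.05 with HFD and -2.30 ± 0.24 with CD (SD, 3 mice each). The third (A_52_P602091) had -4.76 ± 0.21 and -4.82 ± 0.38 (SD, 3 mice each). The diets overlapped on all 3 probes, and the differences were -0.12 (SE 0.25), -0.27 (SE 0.15) and 0.06 (SE 0.23), so the probes did not share a direction. For the brightest probe, limma's adjusted p was 0.828, and the sign turned without control replicate 2 (0.072) and within the shared slide (0.37). Probe sequences are not used here, and whether 1 or more of these probes also binds another transcript was not tested.

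Lgals3 (NM_001145953, probe A_55_P2171116), the galectin-3 gene, had the largest difference of the 8 genes in the fit of all arrays. Its level was 4.11, 4.43 and 4.21 on high-fat replicates 1 to 3. On control replicates 1 to 3 it was 5.49, 5.02 and 5.22. Every high-fat array lay below every control array, and in intensity units the signal was 29498 to 35486 against 43084 to 82218. The difference of -0.99 (SE 0.17, 95% interval -1.40 to -0.59), or 1.99-fold lower on the high-fat diet, had an unadjusted p of 0.00086 and an adjusted p of 0.160 in limma, and thus did not pass. The exact permutation test gave p = 0.1, its smallest value. Within the shared slide the difference was -1.17. With array weights, a setting under which 2568 higher and 2840 lower genes were called, it passed with an adjusted p of 0.026.

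Within each array, Lgals3 minus Adgre1 was 9.24 ± 0.21 with HFD and 10.49 ± 0.40 with CD (SD, 3 mice each), a difference of -1.25 with an exact permutation p of 0.1, the smallest possible. Lgals3 alone separated the diets and Adgre1 did not, so most of this difference is that of Lgals3 itself. Other cells also make galectin-3, and none of their markers named here passed the adjusted threshold. Of 10 fibroblast genes, 8 had negative differences and 4 were lower at the unadjusted threshold (7.46% of all genes). Their signal summed to 205 to 486 times the 75th percentile on the high-fat and 422 to 721 times on the control arrays, so the sums overlapped. All 10 basal epithelial genes had positive differences, 7 of them at the unadjusted threshold (5.88% of all genes were higher at it). Their sums were 223 to 265 against 98.4 to 152. Of 14 luminal genes, 13 were positive (median 0.66). Skeletal muscle is not named above as a source of galectin-3 and is given for comparison. Of its 8 tested genes, 7 were negative (median -1.07) and 6 lower at the unadjusted threshold (7.46% of all genes). The sums of 22 tested macrophage genes, at 4.20 to 11.7 with HFD and 4.24 to 9.13 with CD, were 42.7% to 78.7% Cd14, named for that share. Without it the sums of the other 21 were 1.71 to 2.82 and 1.95 to 3.53. The part of these cells in the Lgals3 difference was not tested.

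**Figure D2:**
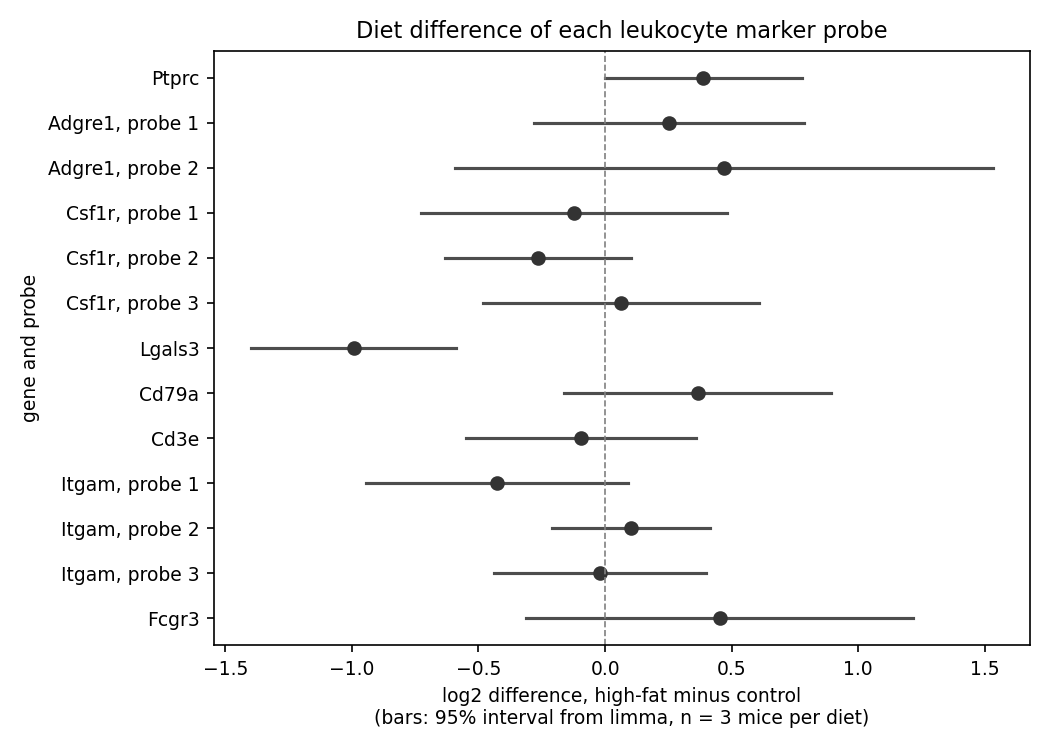
Log2 difference between diets, HFD less CD, for each of the 13 probes, with 95% intervals from limma fitted over all probes (3 mice each). The Lgals3 interval runs from -1.40 to -0.59, the lower end of the Ptprc interval lies just above 0, and the intervals of the other 11 probes include 0.

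Itgam, the CD11b gene, had 3 probes of very unequal brightness. The brightest (NM_001082960, probe A_55_P1977934) was at 2.39, 2.51 and 2.82 on high-fat replicates 1 to 3. It was at 2.61, 3.25 and 3.15 on control replicates 1 to 3, so control replicate 1 fell among the high-fat arrays. The difference was -0.43 (SE 0.21, 95% interval -0.95 to 0.09) with an adjusted p of 0.413 in limma. Within the shared slide it was 0.057, opposite in sign. With array weights, under which 2568 higher and 2840 lower genes were called, it passed with an adjusted p of 0.031 in limma. The other 2 probes (A_55_P1977929, and A_55_P1977926 for NM_008401) differed by 0.10 (SE 0.13) and -0.02 (SE 0.17). Their group means lay at -4.55 ± 0.16 and -4.99 ± 0.21 with HFD and at -4.65 ± 0.05 and -4.98 ± 0.22 with CD (SD, 3 mice each). Itgb2, the beta chain that pairs with CD11b, was at -2.91 ± 0.18 with HFD and -3.16 ± 0.09 with CD (SD, 3 mice each) and differed by 0.25 (SE 0.14, adjusted p = 0.450 in limma), with diets that did not overlap by a narrow margin (-3.10 on both nearest arrays).

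Fcgr3, the low-affinity IgG receptor III (NM_010188, probe A_52_P408757), was dim and variable. Its level was -5.43, -4.69 and -4.95 on high-fat replicates 1 to 3 and -6.08, -5.29 and -5.06 on control replicates 1 to 3. Control replicate 1 was lowest, as it was for Ptprc and for both the brightest Csf1r probe and the Adgre1 probe named first. The difference was 0.45 (SE 0.32, 95% interval -0.31 to 1.22) with an adjusted p of 0.528 in limma. Within the shared slide, where the only control array was that lowest one, it was 1.26 (unadjusted p = 0.0044, adjusted p = 0.696 in limma). It was 0.15 without control replicate 1, 0.28 without high-fat replicate 2, 0.66 without control replicate 3 and 0.84 with normexp. Fcer1g, the chain through which Fcgr3 signals, was named outside the rule for its role and lay above background on all 6 arrays, with 360 to 1088 intensity units and group means of -1.16 and -1.41. Among the other IgG receptors, Fcgr2b, the inhibitory one, differed by -0.59 (SE 0.39), Fcgr4 by -0.29 (SE 0.45) and Fcgr1, the high-affinity one, by -0.25 (SE 0.33). These receptors resemble each other in sequence, and binding of 1 receptor's transcript to another's probe was not tested.

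Cd79a, the B cell receptor chain (NM_007655, probe A_66_P120987), lay at the edge of detection. Its level was -6.45, -6.75 and -6.91 on high-fat replicates 1 to 3 and -7.03, -7.44 and -6.74 on control replicates 1 to 3. Control replicate 2 was not well above background, and control replicate 3 lay above 2 of the high-fat arrays. The signal was 13.3 to 22.5 intensity units on the high-fat and 7.65 to 14.0 on the control arrays. The difference was 0.37 (SE 0.22, 95% interval -0.16 to 0.89) with an adjusted p of 0.472 in limma. It was 0.18 without control replicate 2, 0.24 without high-fat replicate 1, 0.20 within the shared slide and 0.85 with normexp. Cd79b, its partner chain, was well above background on 5 of 6 arrays and differed by -0.93 (SE 0.49), so the pair did not share a direction. Ms4a1, the CD20 gene, was above background on 0 of 6 arrays, with at most 3.90 intensity units.

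Cd3e, a T cell receptor chain (NM_007648, probe A_55_P2156229), was bright on every array. Its level was 0.77, 0.64 and 0.92 on high-fat replicates 1 to 3 and 0.54, 1.16 and 0.91 on control replicates 1 to 3. The high-fat arrays lay within the control range. The difference was -0.09 (SE 0.19, 95% interval -0.55 to 0.36) with an adjusted p of 0.824 in limma, and the sign turned without control replicate 2 (0.052) and within the shared slide (0.24). The chains that form the CD3 complex with it were not well above background on any array. Cd3d gave 1.84 to 4.30 intensity units, Cd3g 1.71 to 3.75 and Cd247, the zeta chain, 2.03 to 3.80. Cd3g and Cd247 were named after their values were seen. Cd8a, the cytotoxic T cell co-receptor, was likewise above background on 0 of 6 arrays, whereas the Cd4 probe was at 1.21 ± 0.07 with HFD and 1.08 ± 0.04 with CD (SD, 3 mice each). What the Cd3e and Cd4 probes bind in these samples was not tested. The within-array difference of Cd79a minus Cd3e was -7.48 ± 0.31 with HFD and -7.94 ± 0.58 with CD (SD, 3 mice each). The diets differed by 0.46, a value between these SDs, and the exact permutation test gave p = 0.3. This diet difference rested on control replicate 2, where Cd79a was not well above background and the value was -8.60. It was 0.13 without that array and -0.038 within the shared slide.

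**Figure D3:**
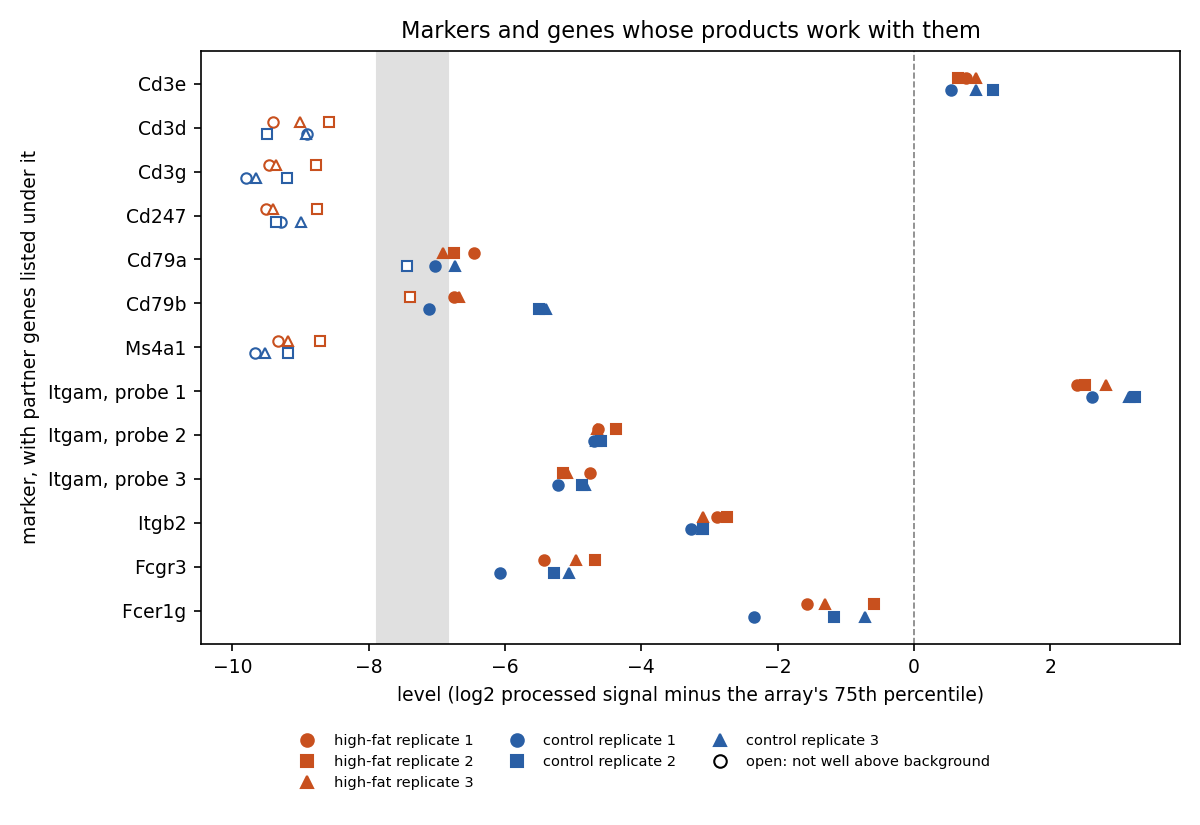
Level of Cd3e, Cd79a, Itgam and Fcgr3 and of genes whose products work in the same receptor or cell, on each of the 6 arrays, with open symbols for values not well above background. The 3 other CD3 chains and Ms4a1 lie left of the grey detection band (-7.87 to -6.83) on all arrays, while the Cd3e probe lies right of the dashed line at 0.

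Other genes listed for each lineage were counted by detection. A listed gene may also be made by other cells, so its detection does not show that the lineage was present. Taking the brightest probe of each gene, 73.0% of 20786 named genes lay well above background on all 6 arrays. Of the pan-leukocyte list, 19 of 23 genes on the array did so, and of the macrophage list 17 of 27. Of the T cell list 12 of 22 did, and 7 were above background on 0 arrays: Cd2, Cd3d, Cd3g, Cd247, Cd8a, Il7r and Trat1, of which all but Cd3d and Cd8a are named because of that result. For B cells it was 10 of 19, for NK cells 6 of 11, for plasma cells 2 of 5, for neutrophils 8 of 11, and for mast cells, eosinophils and basophils 5 of 13. Detection was uneven within lists. Ncr1, a receptor of NK cells, and Cpa3, a mast cell protease, were above background on 1 of 6 arrays. Jchain, of plasma cells, was above it on 2, and the follicle chemokine Cxcl13 on 0. Nkg7 and Prf1 of the NK cell list and Kit and Tpsb2 of the mast cell list were above background on all 6. So were Ccl19 and Madcam1 of the lymph node list. Prf1, Kit and Ccl19 were named after their values were seen. Of the 8 lymph node genes on the array, 5 lay above background on all arrays.

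The same count was 10 of 10 for basal epithelium, 13 of 14 for luminal epithelium, 10 of 10 for fibroblasts, 10 of 10 for endothelium and 8 of 10 for fat cells. Krt18, a luminal keratin, stood at 8.08 ± 0.44 with HFD and 7.57 ± 0.32 with CD, and Krt5, a basal keratin, at 6.06 ± 0.13 and 4.79 ± 0.25 (SD, 3 mice each). Adipoq, the adiponectin gene that defines fat cells, was at -5.95 ± 0.24 and -6.99 ± 0.34 (SD, 3 mice each) and on 1 control array was not well above background. Fabp4, a fatty acid carrier of fat cells that endothelium also makes, was at 1.43 ± 1.08 and 1.31 ± 0.49 (SD, 3 mice each, named after its values were seen). Fabp4 made up 73.9% to 90.3% of the summed signal of the fat cell list. With HFD and CD, Plin1 was at -6.03 and -6.21, Cidec at -6.16 and -6.12 and Lep at -5.66 and -5.83. Lipe was at -5.09 and -4.80 and Retn at -4.94 and -5.57. Car3 was at -3.20 and -4.60, Cfd at -3.23 and -5.01 and Pparg at -2.21 and -1.12. All of these but Lep were named after their values were seen. Levels within each of these lists differed widely, and which of the 2 sources that the labels name was used was not tested. No sample of known leukocyte content was measured, so the signals give no share of immune cells.

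**Figure D4:**
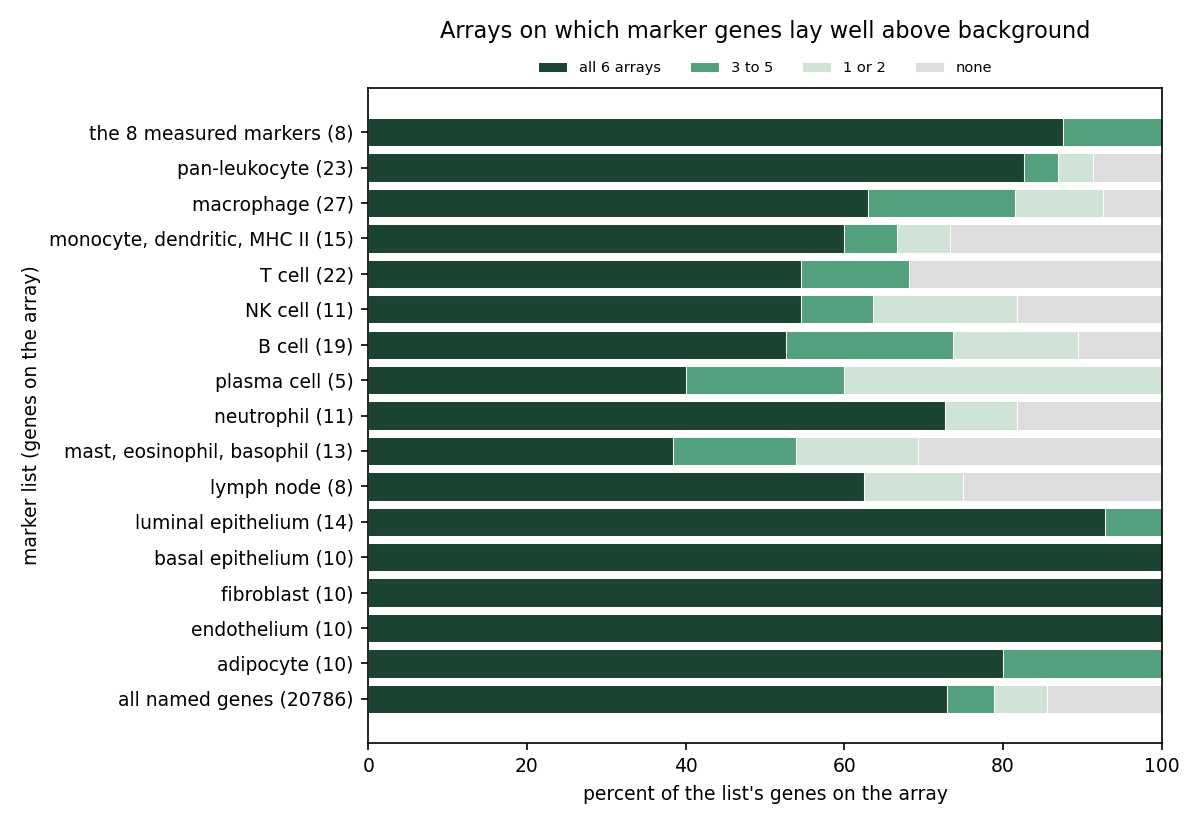
Share of the genes of each marker list, among those on the array (number in brackets), that lay well above background on all 6 arrays, on 3 to 5, on 1 or 2, or on none, using the brightest probe per gene. The T cell list reaches 12 of 22 genes on all 6 arrays and has 7 genes on none, while the basal epithelial, fibroblast and endothelial lists are detected on all 6.

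Of the 20 tested pan-leukocyte genes beside Ptprc, none passed the adjusted threshold, 1 was higher and 1 lower at the unadjusted threshold (5.88% and 7.46% of all genes), and the median difference was 0.16. Nckap1l, a regulator of actin in blood cells, was at -2.62 ± 0.05 with HFD and -3.21 ± 0.40 with CD (SD, 3 mice each), a difference of 0.59 (SE 0.21). Was, the Wiskott-Aldrich syndrome protein, differed by 0.35 (SE 0.15). In both the diets did not overlap, as in Cyth4, which had the opposite sign (-0.57, SE 0.31). Of the list 3 genes were higher and 1 lower without overlap (8.47% and 8.75% of all genes). The median was -0.07 without high-fat replicate 2, -0.11 without control replicate 1 and 0.51 with normexp. Arhgdib, a signalling regulator abundant in lymphocytes, differed by -0.76 (SE 0.26), and Cd52 and Coro1a by 0.25 (SE 0.57) and 0.03 (SE 0.21). The adjusted p of the genes named here ran from 0.340 to 0.958 in limma.

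The 22 tested macrophage genes split evenly, 11 positive and 11 negative, with a median of 0.003 and none past the adjusted threshold. That median was 0.72 with normexp (0.27 over all genes), 0.60 with slide as a block, -0.21 without control replicate 1 and 0.29 without control replicate 3. At the unadjusted threshold 2 of the 22 were lower and 0 higher (7.46% and 5.88% of all genes). Mrc1, the mannose receptor CD206 of resident macrophages, was at -5.11 ± 0.30 with HFD and -4.10 ± 0.68 with CD (SD, 3 mice each). Its difference was -1.01 (SE 0.36), but control replicate 2 (-4.86) lay within the high-fat range. Gpnmb, a lysosomal glycoprotein, differed by -1.37 (SE 0.49), and Itgax, the CD11c gene of dendritic cells and some macrophages, by 0.91 (SE 0.39). Lyz2, the lysozyme of myeloid cells, differed by 0.39 (SE 0.45) and C1qa, a complement chain made by macrophages, by -0.15 (SE 0.34). Across this list control replicate 1 had the lowest mean level, -4.72, and control replicate 3 the highest, -3.67, so 2 arrays of 1 diet spanned all high-fat arrays (-4.50 to -3.78).

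Of 10 tested monocyte, dendritic cell and MHC class II genes, none passed the adjusted threshold and the median was -0.17 (0.32 with normexp, 0.35 with slide as a block). H2-Ab1 and Cd74, which act in antigen presentation to helper T cells, differed by 0.54 (SE 0.45) and 0.31 (SE 0.48). Plac8, which is also made outside the immune system, differed by -1.47 (SE 0.48), with values of 2.11, 1.66 and 3.56 on the high-fat and 3.68, 3.85 and 4.21 on the control arrays. High-fat replicate 3 was close to the controls. For neutrophils all 8 tested genes had lower means with HFD (median -0.55, 51% of all genes were negative), and none passed the adjusted threshold. At the unadjusted threshold 2 of the 8 were lower (7.46% of all genes), and 1 was lower without overlap (8.75% of all genes). The median was -0.27 without high-fat replicate 1, -0.29 without control replicate 3, -0.90 without control replicate 2 and -0.26 with normexp. S100a8 and S100a9, calcium-binding proteins of neutrophils that epithelium also makes, differed by -0.62 (SE 0.88) and -1.63 (SE 1.00), and both were far lower on control replicate 2 (0.21 and -1.83) than on the other controls. Camp, a granule peptide, differed by -1.13 (SE 0.36) and Mpo, the granule peroxidase, by -0.97 (SE 0.38).

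Of 15 tested T cell genes, none passed the adjusted threshold, 2 were higher and 1 lower at the unadjusted threshold (5.88% and 7.46% of all genes), and the median was -0.07 (0.66 with normexp). Cd6, a receptor of T cells, was at -3.76, -3.77 and -3.75 on the high-fat and -2.76, -2.66 and -2.95 on the control arrays. Its difference was -0.98 (SE 0.12, adjusted p = 0.117 in limma). Bcl11b and Tcf7, transcription factors of T cell development that are not confined to T cells, had the opposite sign, at 1.29 (SE 0.21, adjusted p = 0.139) and 0.91 (SE 0.18, adjusted p = 0.215) in limma. All 3 had diets that did not overlap, as did Cd4 (higher) and Cd8b1 (lower). These were 5 of 15 in all, against 17.2% of all genes, and Cd8b1 is named to complete that count. Cd8b1 was well above background on 1 high-fat and 3 control arrays, so it passed the filter through the controls. Its levels were -7.51, -7.08 and -7.15 on the high-fat and -7.00, -6.88 and -4.39 on the control arrays. All but the last lie in the range of the detection limit, so Cd8b1 adds no support to that count. Within this list the chains of the receptor complex were not detected, as given above. The 7 tested NK cell genes had a median of -0.07 (0.72 with normexp) with none past an unadjusted p of 0.05.

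The 14 tested B cell genes had a median of -0.0013 (0.72 with normexp), with 7 positive and 7 negative and none past the adjusted threshold. Pou2af1, a coactivator of immunoglobulin genes, had the largest difference of the list, -4.84 ± 0.40 with CD and -3.07 ± 0.29 with HFD (SD, 3 mice each, adjusted p = 0.117 in limma), with Ms4a1 not above background on any array. Fcmr, the IgM Fc receptor, differed by 0.49 (SE 0.21). The lymph node list gave a median of 0.22 over 5 tested genes (-0.09 without high-fat replicate 2), and Madcam1, an adhesion molecule of its vessels, differed by 0.22 (SE 0.30). The 3 tested plasma cell genes had a median of -0.05 (0.77 with normexp). Of 7 tested mast cell, eosinophil and basophil genes 6 were negative, with a median of -0.50. It turned to 0.55 with normexp and was -0.16 with probes on all 6 arrays, -0.25 when high-fat replicate 1 or control replicate 3 was left out. Hdc, the histamine-forming enzyme, differed by -1.79 (SE 0.62). High-fat replicate 3 (-1.99) lay above control replicate 1 (-2.26) for Hdc.

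**Figure D5:**
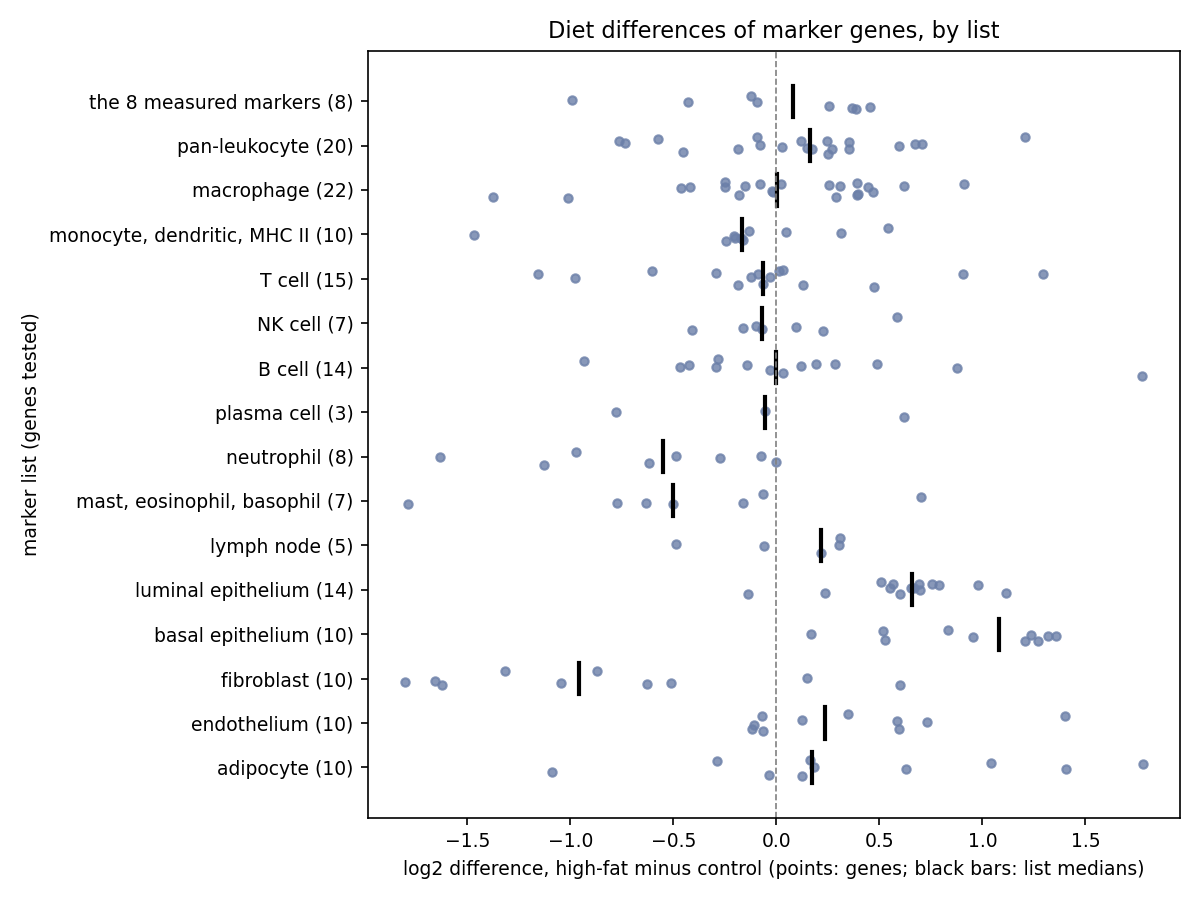
Log2 difference, HFD less CD, of each tested gene (points) in each marker list, with list medians as black bars and the number of tested genes in brackets (3 mice each). Medians of the macrophage, T cell, NK cell, B cell and plasma cell lists lie between -0.07 and 0.003 in the fit shown (0.66 to 0.77 with normexp). The fat cell median lies at 0.17 (0.77 with normexp), so that rise was not confined to leukocyte lists. The neutrophil median lies at -0.55, the basal epithelial median at 1.08 and the fibroblast median at -0.96.

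The genes whose values over the 6 arrays were most like those of a marker are given for 4 of the markers. Likeness was measured as the root mean square distance between values centred on their mean, over all tested genes with a symbol. For Ptprc the nearest 5 were Srf, Zhx2, Abcc4, Sult1a1 and Junb, at 0.05 to 0.07, where the median gene lay at 0.33. For Adgre1 they were Ccdc121, Tardbp, Aadacl4fm5, Gm4792 and Pck1, at 0.08 to 0.11 against a median of 0.36. For Cd79a they were Mex3b, AI593442, Fbxo16, Rbbp6 and Denn2b, at 0.09 to 0.13 against 0.38, and for Cd3e Aldh18a1, Spata31d1b, Tbpl1, Caml and Atp2b4, at 0.03 to 0.04 against 0.30. With 6 arrays many genes lie close to any pattern.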

How the data were processed

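Total RNA was labelled with Cy3 and hybridised to 1 Agilent array per mouse. Per the file headers, spot intensity came from Agilent Feature Extraction 11.0.1.1. The deposited signal is linear, with background subtracted and spatial trend removed. The authors also deposited a table of intensity values, linear and close to the processed signal over the array's 75th percentile (column medians 0.134 to 0.140), used only as an alternative. Flags for control spots, background and outliers came from the same deposited files.

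Control and outlier spots were left out, spots of a probe averaged, and 111 of 39429 probes dropped for lack of a usable spot on every array. Of the rest, 27346 matched 1 symbol through RefSeq accessions. Log2 signal was taken relative to each array's 75th percentile, 28689 probes were kept (called well above background by 3 or more arrays), and the brightest probe stood for a gene. The comparison of diets used lmFit and eBayes of limma (version 3.58.1, R 4.3.3), two-sided, without covariates, with Benjamini-Hochberg adjustment over 23460 genes (over all kept probes for intervals by probe), and was tested on simulated data. For 3 mice against 3, the smallest exact permutation p is 0.1. The labels call the mice biological replicates. The number of arrays limits the precision.

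Members and lists were chosen with earlier results of these data known. Named genes were the members, the 4 genes of each leukocyte list with the smallest p, fixed textbook genes, the nearest 5 genes by pattern and the first 2 of the other lists; the text names a selection. Alternatives covered scaling, background, filter, probe rule, blocks, array weights, the deposited table and leaving out each array. Some genes of these lists are not reported here.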

Additional observations from a re-analysis of the deposited data

How the results depend on the processing

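Of 135 values of the 8 markers under the alternatives, 130 kept their direction, and 5 reversed. Those were Csf1r (0.072) and Cd3e (0.052) without control replicate 2, and Csf1r (0.37), Cd3e (0.24) and Itgam (0.057) with slide as a block. Part of the 130 was fixed in advance. The exact permutation test, the replicate block and both changes of filter leave a marker's difference as it was, so they could not reverse it. Leaving out 1 array gave -0.38 to 0.072 for Csf1r and -0.26 to 0.052 for Cd3e. The cause was not tested. The block takes its estimate from 2 high-fat arrays and 1 control array. Only array weights, which ran from 0.339 for control replicate 1 to 4.69 for control replicate 3, moved a marker past the adjusted threshold (Lgals3 and Itgam). Counts of genes past the adjusted threshold, 0 higher and 4 lower, became 2568 and 2840 with array weights. The lower count was 2 with median scaling, 7 with probes well above background on all 6 arrays, and 0 with quantile normalization, normexp, no filter, the replicate block and slide as a block. Leaving out 1 array gave 0 to 37 lower genes, 37 of them without high-fat replicate 3, and 0 higher. At an unadjusted p under 0.05, 1379 higher and 1750 lower genes became 502 and 599 with normexp, 599 and 633 with slide as a block and 4615 and 5176 with array weights. Leaving out 1 array gave 483 to 2383 higher and 930 to 3042 lower.

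The median of the 8 markers moved from 0.08 to 0.32 with normexp, where the median of all genes was 0.27, to -0.094 with probes on all 6 arrays, where Cd79a drops out, and to 0.31 with slide as a block. Leaving out 1 array gave -0.05 to 0.18. Normexp also raised the medians of fat cell genes (0.17 to 0.77) and skeletal muscle genes (-1.07 to -0.05). It moved those of basal (1.08 to 0.97), luminal (0.66 to 0.60) and fibroblast genes (-0.96 under both) little. Cd79a minus Cd3e was 1.00 with normexp and -0.038 with slide as a block, and 0.13 to 0.64 without 1 array. Lgals3 minus Adgre1 was -1.91 and -1.66, and -1.42 to -1.03. The alternatives for these within-array differences were chosen after seeing the data. Of the medians of the 11 leukocyte lists under the alternatives, 147 moved by less than the SD between mice of the list's mean level, and 29 moved further. Part of the 147 was fixed in advance. The replicate block leaves each median as it was, and median scaling shifts all genes alike. Arrays of the same replicate number had correlations of deviations of 0.33, -0.14 and 0.25, and arrays of different numbers -0.38 to 0.23. Whether the numbers pair the arrays is not settled by these values. With the replicate block, 1819 higher and 2225 lower genes passed an unadjusted p of 0.05 in limma. Fcgr3 (0.0479) and Itgam (0.0497) came under that threshold and Ptprc (0.0764) rose above it. After adjustment 0 markers passed, with Lgals3 at an adjusted p of 0.157. Dim probes such as those of Ptprc, Cd79a and Fcgr3 lie near the detection limit, where signal over background limits what a difference can show.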
